A study of Mus musculus with 12 samples.

Results

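Killer lectin-like receptors are C-type lectin receptors first known from natural killer (NK) cells. The 10 genes described here, Klrd1, Klrc1, Klrk1, Klre1, Klra7, Klra8, Klra9, Klrb1c, Klrb1f and Klrg1, were taken by symbol from the 32285 genes of the deposited single-cell matrix, which held 16 further symbols that begin with Klr. The matrix came from T cells that were sorted as CD4+, CD8+ or γδ+ from the brain parenchyma of perfused female mice at 9 months of age. Crosses of PS19 with 5XFAD mice, both hemizygous, gave littermates of 4 genotypes, which were read as 6 pools. PS-5X (4 mice) carried both sets of transgenes, 5XFAD-1 (4 mice) and 5XFAD-2 (3 mice) carried 5XFAD, a model of amyloid deposition, PS19 (4 mice) carried mutant human tau under the mouse prion promoter, and WT-1 (10 mice) and WT-2 (8 mice) carried neither. The PS19 founders were B6C3F1 and the 5XFAD founders C57BL/6 congenic. Gene content and alleles of the Klra cluster differ between inbred strains, and whether the pools differed in these alleles was not tested.

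In T cells these receptors are best known from cytotoxic CD8 cells and from innate-like lymphocytes. Klrd1 (CD94) pairs with Klrc1 (NKG2A) to form an inhibitory receptor for the non-classical MHC molecule encoded by H2-T23, while Klrk1 (NKG2D) is an activating receptor for stress-induced ligands and signals through the adaptor Hcst. Klra7 and Klra9 encode inhibitory Ly49 receptors for classical MHC class I, Klra8 an activating Ly49 receptor that signals through Tyrobp, Klrb1c the activating receptor by which NK cells of C57BL/6 mice are stained, Klrb1f a receptor for Clec2i, and Klrg1 an inhibitory receptor for cadherins that marks terminally differentiated effector cells. Klre1 encodes a receptor chain that pairs with Klri1 or Klri2.

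After filtering, 17380 cells were kept, and cells were assigned to classes by UMIs (unique molecular identifiers, 1 per captured RNA molecule) of genes that are not among the 10. CD8 T cells had UMIs of Cd3e and Cd8b1 and none of Cd4 or Trdc, CD4 T cells had UMIs of Cd3e and Cd4 and none of Cd8a, Cd8b1 or Trdc, and γδ T cells had UMIs of Cd3e and Trdc, none of Cd4 or Cd8b1 and no β chain contig. This gave 10708 CD8, 2766 CD4 and 748 γδ T cells. Levels are given as CPM (counts per 1000000), the UMIs of a gene scaled to 1000000 UMIs of a class in a pool, and tests were run over pools with edgeR's quasi-likelihood test, with differences as log2 ± SE and p-values adjusted over all genes tested. Each pool is 1 library of several mice, so p-values measure the spread between pools only. Receptors were shared between pools of 1 sequencing run: of the cells with both receptor chains, 181 of 4331 in PS-5X, 571 of 1873 in 5XFAD-1, 177 of 1759 in PS19 and 173 of 559 in WT-1 carried a receptor also found in another pool. WT-1 shared 65 receptors with 5XFAD-1 and 52 with PS19, while 5XFAD-2 and WT-2, which were sequenced in a separate run, shared none with any other pool.

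All 10 genes lie on chromosome 6 (GRCm38.p6, RefSeq). Klrg1 stands alone at chr6:122270596-122282833. The others are close neighbours, from Klrb1c at chr6:128778485-128788641 and Klrb1f at chr6:129045837-129059724, through Klre1 at chr6:129559365-129585828, Klrd1 at chr6:129588092-129598775, Klrk1 at chr6:129610323-129623903 and Klrc1 at chr6:129666015-129682852, to Klra8 at chr6:130115226-130129898, Klra9 at chr6:130178626-130194374 and Klra7 at chr6:130218605-130233322. RefSeq promoter windows of 300 bases were at hand for 8 of the 10 genes (11 windows). Klrc1, Klrk1 and Klre1 were all higher in CD8 than in CD4 T cells and in experienced than in naive-type CD8 T cells. Those of their windows that hold the RUNX core motif are shown 5′ to 3′, with the motif in capitals (TGTGGT, or ACCACA on the other strand). The other window of Klre1, chr6:129578036-129578335, lacks the motif and is not shown. The windows of Klrc1 and Klre1 lie inside the gene spans given above. RUNX factors are transcription factors of CD8 and NK cells.
Klrc1, chr6:129678924-129679223, minus strand: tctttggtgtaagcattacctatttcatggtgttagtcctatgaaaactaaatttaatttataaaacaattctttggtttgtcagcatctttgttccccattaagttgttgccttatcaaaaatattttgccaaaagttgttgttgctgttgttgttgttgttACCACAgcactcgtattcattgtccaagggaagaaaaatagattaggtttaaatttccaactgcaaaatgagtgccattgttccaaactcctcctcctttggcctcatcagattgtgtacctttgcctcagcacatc
Klrk1, chr6:129623815-129624114, minus strand: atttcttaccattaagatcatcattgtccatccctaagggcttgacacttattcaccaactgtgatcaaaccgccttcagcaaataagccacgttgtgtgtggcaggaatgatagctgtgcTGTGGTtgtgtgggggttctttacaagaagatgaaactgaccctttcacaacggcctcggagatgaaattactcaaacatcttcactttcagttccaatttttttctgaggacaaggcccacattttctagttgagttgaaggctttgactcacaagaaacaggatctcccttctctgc
Klre1, chr6:129577963-129578262, plus strand: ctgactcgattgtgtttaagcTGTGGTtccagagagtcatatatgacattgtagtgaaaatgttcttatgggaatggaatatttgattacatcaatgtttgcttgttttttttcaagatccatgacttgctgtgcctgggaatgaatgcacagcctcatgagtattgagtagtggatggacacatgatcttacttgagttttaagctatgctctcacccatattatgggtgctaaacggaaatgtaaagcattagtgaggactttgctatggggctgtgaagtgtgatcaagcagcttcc
This motif was present in 4 of the 11 windows, those of Klrc1, Klrk1, 1 of Klre1 and that of Klrb1c, and in 16.8% of the 32851 windows of all genes. The T-box core AGGTGT, which reads ACACCT on the other strand, was in 0 of the 11 windows and in 13.7% of all windows. Klra7 was also higher in CD8 than in CD4 T cells, and neither of its windows holds the RUNX core motif. Klrb1c, whose window holds it, was not called in that comparison. These matches describe letters only, and a link to the levels was not tested.

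The windows of Klra7 and Klra8 are shown because the Klra genes are close relatives. The windows lie mostly before the start of the transcript.
Klra7, chr6:130233273-130233572, minus strand: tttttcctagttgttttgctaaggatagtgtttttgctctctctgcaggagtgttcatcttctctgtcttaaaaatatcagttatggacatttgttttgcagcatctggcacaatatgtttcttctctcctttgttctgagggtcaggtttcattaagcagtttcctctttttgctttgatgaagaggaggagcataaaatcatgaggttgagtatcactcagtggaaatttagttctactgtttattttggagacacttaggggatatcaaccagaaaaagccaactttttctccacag
Klra8, chr6:130129849-130130148, minus strand: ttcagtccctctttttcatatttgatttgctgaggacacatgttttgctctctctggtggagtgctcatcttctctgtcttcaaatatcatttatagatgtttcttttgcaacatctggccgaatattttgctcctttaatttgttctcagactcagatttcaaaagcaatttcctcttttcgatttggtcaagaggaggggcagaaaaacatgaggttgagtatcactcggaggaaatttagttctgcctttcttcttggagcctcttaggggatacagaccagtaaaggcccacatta
In a local alignment these windows were identical in 231 of 290 aligned columns (79.7%). Those of Klra7 and Klra9 were identical at 181 of 238 (76.1%) and those of Klra8 and Klra9 at 192 of 255 (75.3%). Whether reads of a Klra gene were counted under another was not tested, so levels of single Klra genes are uncertain.

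The first question was which T cells of the brain hold these receptors. CD8 T cells had more RNA of 5 members than CD4 T cells, with Klrc1, Klre1, Klrd1, Klra7 and Klrk1 higher by between 1.66 and 2.95 on the log2 scale. Klrc1 had 110.6, 198.6, 106.7, 148.5, 211.8 and 142.3 CPM in CD8 T cells of PS-5X, 5XFAD-1, 5XFAD-2, PS19, WT-1 and WT-2, against 10.5, 65.7, 21.2, 10.7, 20.4 and 3.20 CPM in their CD4 T cells. The groups did not overlap, and CD4 T cells of 5XFAD-1 stood highest among the CD4 sums. The difference of Klrc1 was 2.95 ± 0.33 (adjusted p = 1.3e-06), positive in 6 of 6 pools.

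Klrd1, the partner of Klrc1, had a lowest, median and highest level of 131.3, 160.6 and 183.7 CPM in CD8 T cells, against 22.2, 36.6 and 85.2 CPM in CD4 T cells (2.05 ± 0.24, adjusted p = 1.75e-06). Klrk1 had 113.9, 141.7 and 204.4 CPM in CD8 T cells, against 29.6, 56.5 and 67.7 CPM in CD4 T cells (1.66 ± 0.18, 8.13e-07). Both genes were higher in CD8 T cells of every pool. Klre1 (2.28 ± 0.34, 3.79e-05) and Klra7 (1.92 ± 0.33, 1.79e-04) were also higher, with medians of 22.0 and 7.16 CPM in CD8 T cells, against 4.46 and 2.44 CPM in CD4 T cells.

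In all, 5 of the 9 members tested were called higher in CD8 T cells and 0 lower, where 25.4% of 10855 genes were called in either direction and 12.3% higher. The median log2 difference of the 9 was 1.66, and that of all genes tested was 0.01. Klrb1c, Klrb1f and Klra9 did not pass, and Klra8 was too low to be tested. Klrg1 had 9.48, 12.5, 8.39, 15.5, 14.9 and 70.7 CPM in CD8 T cells, against 20.3, 19.5, 10.1, 50.9, 23.4 and 18.9 CPM in CD4 T cells, in the pool order above. It was thus lower in CD8 T cells in 5 of 6 pools and higher in WT-2, and did not pass (-0.28 ± 0.33, adjusted p = 0.601). Without WT-2 the difference of Klrg1 was -0.93 (adjusted p = 0.00254), and with classes taken from clusters made without Klr genes it was 0.86 (adjusted p = 0.0246).

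Of 15 other Klr genes 9 were tested, and Klra6 (5.21 ± 0.72) and Klra1 (2.59 ± 0.48) were higher and Klri2, a partner of Klre1, lower (-1.80 ± 0.40) in CD8 T cells. Among 10 tested adaptor and signalling genes 3 were higher and 2 lower, including Hcst (0.37 ± 0.09), the adaptor of Klrk1, and the T cell receptor chain Cd247 (-0.67 ± 0.06). Of 8 tested ligand genes 2 were higher, Clec2i (0.54 ± 0.09), the ligand of Klrb1f, and the Klrg1 ligand Cdh1 (1.13 ± 0.20).

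The share of cells with a UMI depends on depth, so each cell was thinned to 2000 UMIs. At that depth Klrd1 was seen in 22.6% of antigen-experienced CD8 T cells (defined below), Klrk1 in 21.8% and Klrc1 in 19.95%, against 4.6%, 5.2% and 2.3% of CD4 T cells. Over all CD8 T cells, naive-type included, the medians of the 6 pools were 23.9% for Klrd1, 17.5% for Klrk1 and 16.15% for Klrc1. Median depth before thinning was 6094 UMIs in the experienced CD8 and 5593 in the CD4 cells.

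**Figure D1:**
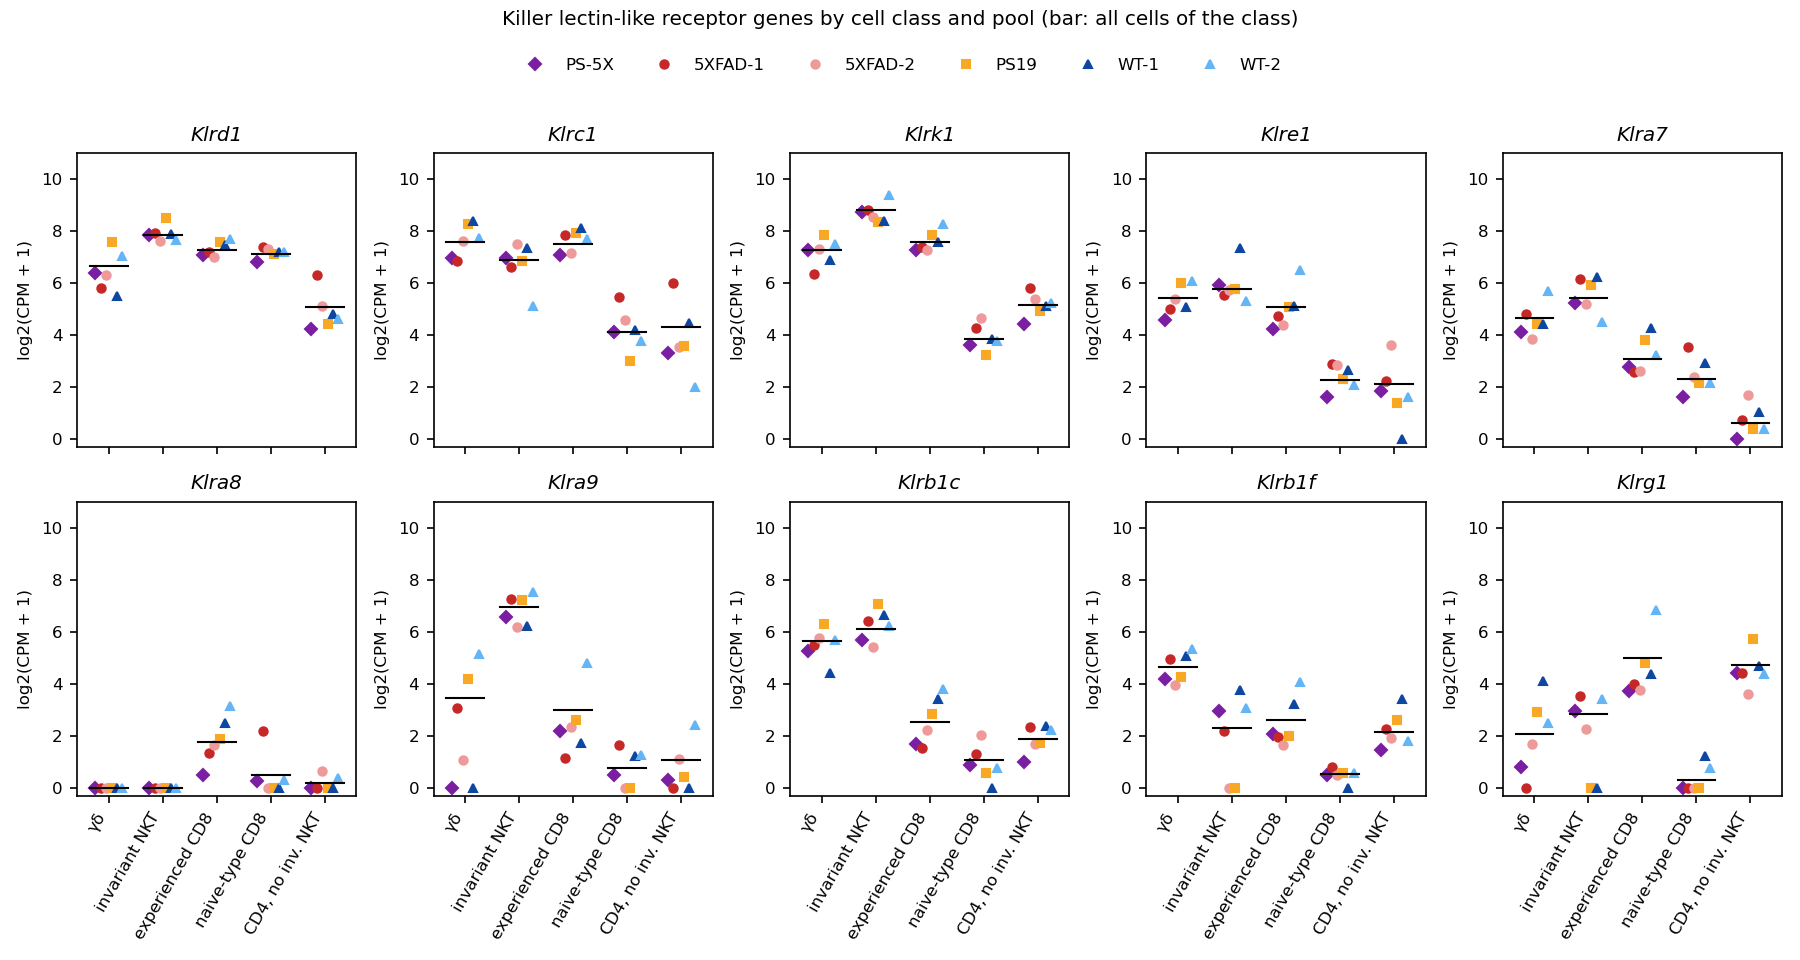
Level of each of the 10 genes in 5 classes of T cells, as log2(CPM + 1) on the vertical axis, with 1 point per pool and a bar at the level over all cells of the class. The bars of γδ T cells and of cells with the receptor of invariant NKT cells ("inv. NKT") stand above those of the other classes for Klrb1c and Klra7, that of Klra9 is highest in the NKT cells, and those of naive-type CD8 T cells stand below those of experienced cells for all 10 genes, by the least for Klrd1. The γδ point of WT-1 rests on 33 cells.

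γδ T cells differed from CD8 T cells in 5 of the 9 tested members, in a comparison in which 42.4% of all 10855 genes were called. Klrb1c, Klrb1f and Klra7 were higher in γδ than in CD8 T cells, and Klrg1 and Klrd1 were lower. Klrb1c had 37.1, 44.3, 52.4, 78.1, 20.4 and 50.9 CPM in γδ T cells of PS-5X, 5XFAD-1, 5XFAD-2, PS19, WT-1 and WT-2, against 2.04, 1.83, 3.44, 3.78, 7.56 and 8.51 CPM in CD8 T cells. Every γδ sum stood above every CD8 sum (3.48 ± 0.27, adjusted p = 1.69e-09). Klrb1f had a lowest, median and highest level of 14.5, 23.9 and 39.3 CPM in γδ T cells, against 1.51, 2.53 and 9.98 CPM in CD8 T cells (2.57 ± 0.29, 3.84e-07). Klra7 was higher by 1.48 ± 0.27 (1.23e-04), in 6 of 6 pools.

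Klrg1 had 0.742, 0, 2.23, 6.51, 16.3 and 4.62 CPM in γδ T cells, below the CD8 sum of the same pool in all but WT-1, whose γδ sum held 33 cells (-2.78 ± 0.76, adjusted p = 0.00554). Klrd1 was lower by 0.81 on the log2 scale (-0.81 ± 0.25, 0.0123). Thus 3 of the 9 were called higher and 2 lower, a share near that of all genes, and the median of the 9 was 0.58 against -0.04 over all genes. Klre1 (0.58 ± 0.30, adjusted p = 0.127), Klrc1 (0.30 ± 0.28, 0.431) and Klra9 (0.83 ± 0.48, 0.177) did not pass, nor did Klrk1. Without WT-2 Klre1 passed (0.79, 0.0423), without 5XFAD-1 Klrc1 passed (0.50, 0.0237), and with classes from clusters Klra9 passed (2.34, 8.81e-05) and Klrc1 was -0.36 (0.160). Klra8 had no UMI in γδ T cells.

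Related genes moved in the same comparison. Of 9 other Klr genes tested, 8 were higher in γδ T cells and 0 lower, with Klrb1b (7.33 ± 0.44), Klrb1a (6.84 ± 0.71), Klra1 (3.34 ± 0.26) and Klrc2 (1.94 ± 0.26) leading. The adaptor Fcer1g (5.08 ± 0.33) and Cd247 (0.99 ± 0.06) were higher, and Sh2d1a, an adaptor of SLAM family receptors, was lower (-2.20 ± 0.17). Of 8 ligand genes 0 were higher and 7 lower, H2-T23 (-0.56 ± 0.06), H2-K1 (-0.70 ± 0.06), Clec2d (-0.65 ± 0.07) and Cdh1 (-2.99 ± 0.37) among them. The 7 NK genes (Ncr1, Tyrobp, Fcer1g, Eomes, Gzma, Txk, Xcl1) summed to between 403.2 and 1389 CPM in γδ T cells of the pools, against 673.7 to 1403 CPM in CD8 T cells. Of the 7, 3 were called higher (Ncr1, Tyrobp and Fcer1g) and 3 lower (Eomes, Gzma and Xcl1), with Ncr1 at 0 in CD8 T cells of 5XFAD-1 and 5XFAD-2, and their part in the result was not tested.

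Cells with the rearrangement of invariant natural killer T (NKT) cells, TRAV11 joined to TRAJ18, numbered 236, and their levels are given without a test. Klrk1 had a lowest, median and highest level of 328.8, 396.1 and 666.5 CPM over the 6 pools, Klrd1 194.5, 234.3 and 358.7 CPM, Klra9 71.1, 121.4 and 181.8 CPM, and Klra7 21.8, 48.2 and 74.3 CPM. CD4 T cells without these cells had 4.26 CPM of Klra9 at most (all cells 1.11 CPM, against 6.07 CPM with them), so most Klra9 RNA of the CD4 gate came from cells with the NKT receptor. Klra8 had no UMI in them. At 2000 UMIs, 3 or more of the 10 genes were seen in 11.8% of γδ T cells, 17.4% of invariant NKT cells and 9.06% of experienced CD8 T cells, against 1.34% of the CD4 gate.

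The next comparison placed the receptors within CD8 T cells. Experienced CD8 T cells had more of 7 effector genes (Ccl5, Nkg7, Cxcr6, S100a4, Lgals1 and Itgb1 among them) than of 7 naive genes (Ccr7, Lef1, Igfbp4, Dapl1, Actn1 and Il6ra among them) and naive-type CD8 T cells the reverse, which gave 7966 and 2396 cells. Most members were called higher in experienced cells, and Klrd1 was not called. Klrk1 had 156.2, 165.6, 154.3, 229.1, 191.3 and 313.0 CPM in experienced cells of PS-5X, 5XFAD-1, 5XFAD-2, PS19, WT-1 and WT-2, against 11.3, 18.6, 24.5, 8.47, 13.4 and 12.8 CPM in naive-type cells. The groups were far apart in every pool (3.58 ± 0.20, adjusted p = 6.22e-09). Klrc1 had a lowest, median and highest level of 133.6, 218.8 and 279.4 CPM in experienced cells, against 6.97, 16.99 and 43.7 CPM in naive-type cells (3.17 ± 0.24, 1.16e-07).

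Klrg1 was seen in naive-type cells of 2 pools only, at 1.34 CPM in WT-1 and 0.710 CPM in WT-2, and had between 12.0 and 113.5 CPM in experienced cells (7.08 ± 0.29, adjusted p = 2.48e-10). Klrd1 by contrast had 135.5, 146.0, 129.3, 191.1, 178.3 and 205.6 CPM in experienced cells, against 112.3, 167.6, 160.1, 140.0, 147.5 and 148.3 CPM in naive-type cells of the same pools. The groups overlapped. By CPM experienced cells were higher in 4 of 6 pools, with a median log2 difference of 0.27. The edgeR fit, which also scales the sums between libraries (TMM), gave the other sign and did not pass (-0.10 ± 0.09, adjusted p = 0.391). The direction for Klrd1 thus differed between the 2 measures. At 2000 UMIs Klrd1 was seen in 22.6% of experienced and 23.2% of naive-type cells (without thinning 41.7% and 53.7%, at median depths of 6094 and 7122 UMIs). Klrc1 was seen in 19.95% and 2.54%, and Klrk1 in 21.8% and 1.8%. The CD4 shares given above were 2.3% for Klrc1, 5.2% for Klrk1 and 4.6% for Klrd1.

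In this comparison 8 of 10 members were called higher and 0 lower, where 47.3% of 10874 genes were called and 25.3% higher, and the median of the 10 was 3.06 against 0.00 over all genes. Klra9 (3.31 ± 0.55), Klrb1f (3.31 ± 0.43), Klre1 (2.95 ± 0.28), Klra8 (2.43 ± 0.79, adjusted p = 0.0211) and Klrb1c (2.03 ± 0.50, 0.00436) were the others. Klra7 did not pass (0.68 ± 0.32, adjusted p = 0.0992). Without WT-2 the call of Klra8 was lost (1.49, 0.187), and without 5XFAD-1 Klra7 passed (1.05, 0.00316). Hcst (0.61 ± 0.04), Klrc2 (2.40 ± 0.32) and Cdh1 (4.17 ± 0.21) were higher as well, with 8 of 10 adaptor and signalling genes, 1 of 4 other Klr genes and 6 of 8 ligand genes called higher. Markers of other cell types moved in the same comparison. The 7 NK genes summed to between 913.2 and 2037 CPM in experienced cells, against 304.6 to 383.9 CPM in naive-type cells, and of 6 tested 5 were higher (Gzma, Xcl1, Fcer1g, Eomes and Tyrobp) and Txk was lower. The B cell genes Ighm (-2.45 ± 0.06), Cd79b (-1.90 ± 0.27) and Cd79a (-1.25 ± 0.40) were lower. Their part in the result was not tested.

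Receptor genes were seen together in the same experienced CD8 T cells. For 12 pairs, the share of cells with the first gene was compared between cells with and without a UMI of the second, at 2000 UMIs per cell and within each pool. Klrd1 was more frequent in cells with Klrc1 by 15.4, 16.8, 28.1, 25.2, 12.1 and 10.6 percentage points in PS-5X, 5XFAD-1, 5XFAD-2, PS19, WT-1 and WT-2 (mean 18.03). The same held in 6 of 6 pools for Klrd1 by Klrk1 (mean 28.8 points), by Klre1 (34.0) and by Klrg1 (25.7), for Klrc1 by Klrk1 (29.0), by Klre1 (21.5) and by Klrg1 (12.1), and for Klrk1 by Klrg1 (24.7).

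Each of these 8 pairs had p = 0.0312 in a two-sided exact sign-flip permutation test over pools, the smallest that 6 pools allow, and 0.0382 after adjustment over the 11 pairs with at least 2 pools. Klra7 by Klrg1 is not read: Klra7 was in at most 2.56% of cells without Klrg1, so few cells with both were to be seen whatever their relation, and 5 of the 6 pools had none. Klrd1 by Klra7 and Klra7 by Klra9 could be formed in 2 pools and Klra7 by Klra8 in 1, which allows no such p. Klrc1 by Klrg1 varied widely in size, with 1.60 points in WT-1 and 27.7 points in 5XFAD-1. Experienced cells of WT-2 held 3 or more of the 10 genes in 20.1% of cells, against 4.99% to 12.6% in the other pools.

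**Figure D2:**
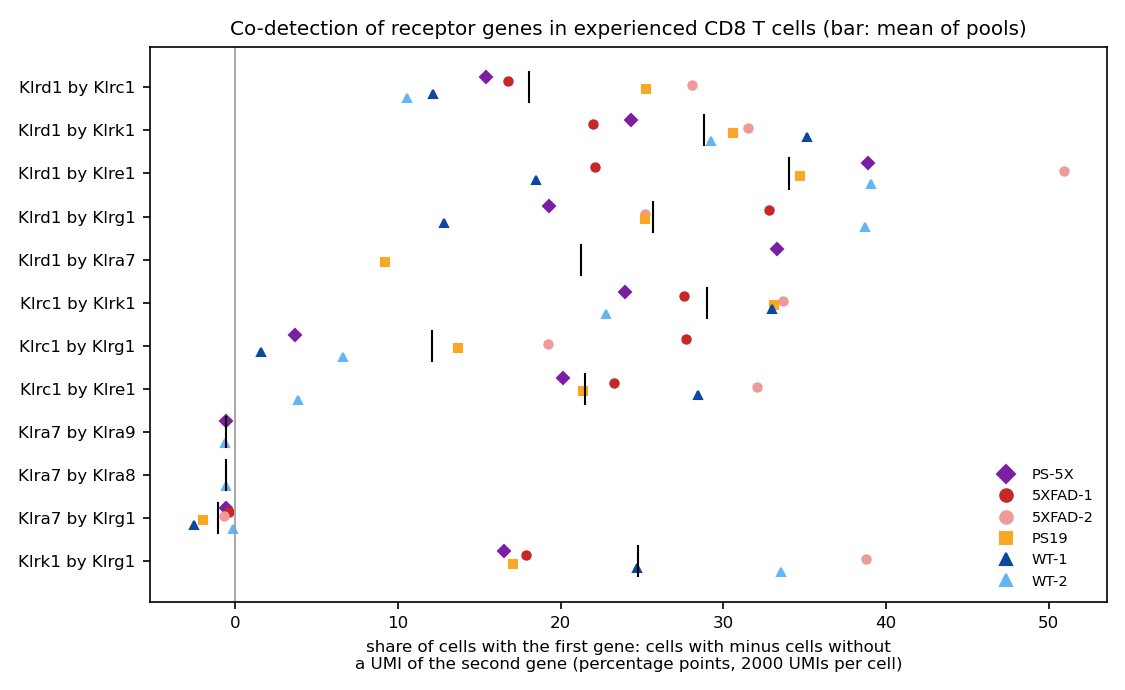
Difference in the share of experienced CD8 T cells with the first gene of a pair between cells with and without a UMI of the second, in percentage points at 2000 UMIs per cell, with 1 point per pool with at least 10 cells on both sides and a bar at their mean. All 6 pools lie above 0 for 8 pairs. For Klra7 by Klrg1, 5 pools held no cell with both genes, and its sign is not read.

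Across the sums of 5 classes in 6 pools (30 sums), the genes whose log2(CPM + 1) followed each member most closely were often members themselves. Pearson's r was 0.86 between Klrc1 and Klre1, 0.88 between Klre1 and Klrk1, and 0.93 between Klrb1c and Klrb1f. The closest gene was Bend4 for Klrd1 (0.89), Serpinb9, an inhibitor of granzyme B, for Klrk1 (0.92), the NK receptor Ncr1 for Klrb1c (0.93) and Zfp36l2 for Klrg1 (0.84). These sums share libraries and classes, and Klra7, Klra8 and Klra9 were under the 10 CPM set for this list.

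Clone size was examined next, with cells of a pool that carry the same T cell receptor taken to descend from 1 cell. Each pool mixed several mice and some receptors occurred in more than 1 pool, so common descent was not tested. Clone size was counted over all barcodes of a pool with a receptor contig, before cells were filtered or assigned to classes. Clones of 2 or more cells in a pool are called expanded, and 3920 experienced CD8 T cells were expanded against 3448 singletons. Klra7 was lower in expanded cells. Its level was 1.87, 0, 2.14, 0.463, 0 and 4.23 CPM in expanded cells of PS-5X, 5XFAD-1, 5XFAD-2, PS19, WT-1 and WT-2, against 11.5, 9.44, 7.53, 20.7, 22.4 and 12.7 CPM in singletons. Every expanded sum stood below every singleton sum (-2.88 ± 0.36, adjusted p = 7.91e-05). Over all pools Klra7 had 13.2 CPM in singletons, 4.69 CPM in clones of 2 to 4 cells, no UMI in clones of 5 to 19 cells and 0.337 CPM in clones of 20 or more.

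Klrc1 was lower by a smaller amount, with 119.8, 220.1, 132.1, 226.1, 259.3 and 160.5 CPM in expanded cells, against 155.6, 234.9, 150.9, 257.4, 288.4 and 248.1 CPM in singletons. It was lower in 6 of 6 pools (-0.35 ± 0.06, adjusted p = 0.00168). The call was lost when cells whose receptor or barcode sequence occurred in another pool were left out (-0.30, adjusted p = 0.117), and over all CD8 T cells, naive-type included, the difference was 0.21 (0.0248). Klrk1 (-0.21 ± 0.07, 0.0813), Klrg1 (0.69 ± 0.25, 0.102), Klra9 (0.89 ± 0.43, 0.250), Klrb1c (-0.85 ± 0.42, 0.264) and Klrb1f (0.64 ± 0.32, 0.265) did not pass, nor did Klre1, Klra8 and Klrd1.

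Thus 0 of 10 members were called higher and 2 lower, where 9.85% of 10580 genes were called, 4.79% higher and 5.06% lower, and the median of the 10 was -0.16 against 0.00 over all genes. WT-2 stood apart for several. Klrg1 had 188.0 CPM in expanded cells of WT-2 and 56.6 CPM in its singletons, against 11.4 to 37.5 CPM in expanded cells and 9.03 to 19.3 CPM in singletons of the other 5 pools. Without WT-2 the difference of Klra9 was -0.18, that of Klrk1 -0.32 (adjusted p = 3.75e-04) and that of Klrb1c -1.74 (0.0114). Klrg1 passed without 5XFAD-1 (0.91, 0.0226), without PS-5X (0.90, 0.0396) and without cells whose receptor or barcode sequence occurred in another pool (0.91, 0.00714). A difference of the clone-size effect between amyloid and other pools was called for 0 of 10580 genes (542 at unadjusted p under 0.05, 0 in DESeq2), and Klrg1 stood at -1.44 ± 0.34 (adjusted p = 0.960). With no filter on low genes 62 genes were called, Klrg1 among them (-1.44, 1.09e-09).

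The other Klr genes moved with Klra7, and 4 of 4 tested were lower in expanded cells, Klra6 (-4.15 ± 0.52), Klra1 (-2.32 ± 0.49), Klra3 (-1.69 ± 0.41) and Klrc2 (-0.98 ± 0.16). Of 10 tested adaptor and signalling genes 1 was higher, Ptpn11 (0.34 ± 0.07), and 1 lower, Fcer1g (-1.49 ± 0.37). Of 8 ligand genes 4 were higher, H2-D1 (0.18 ± 0.03), H2-K1 (0.18 ± 0.03), H2-T23 (0.21 ± 0.04) and Cdh1 (0.44 ± 0.07). The 7 NK genes summed to between 952.1 and 2866 CPM in expanded cells and 857.5 and 1402 CPM in singletons, with 2 called higher and 2 lower.

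**Figure D3:**
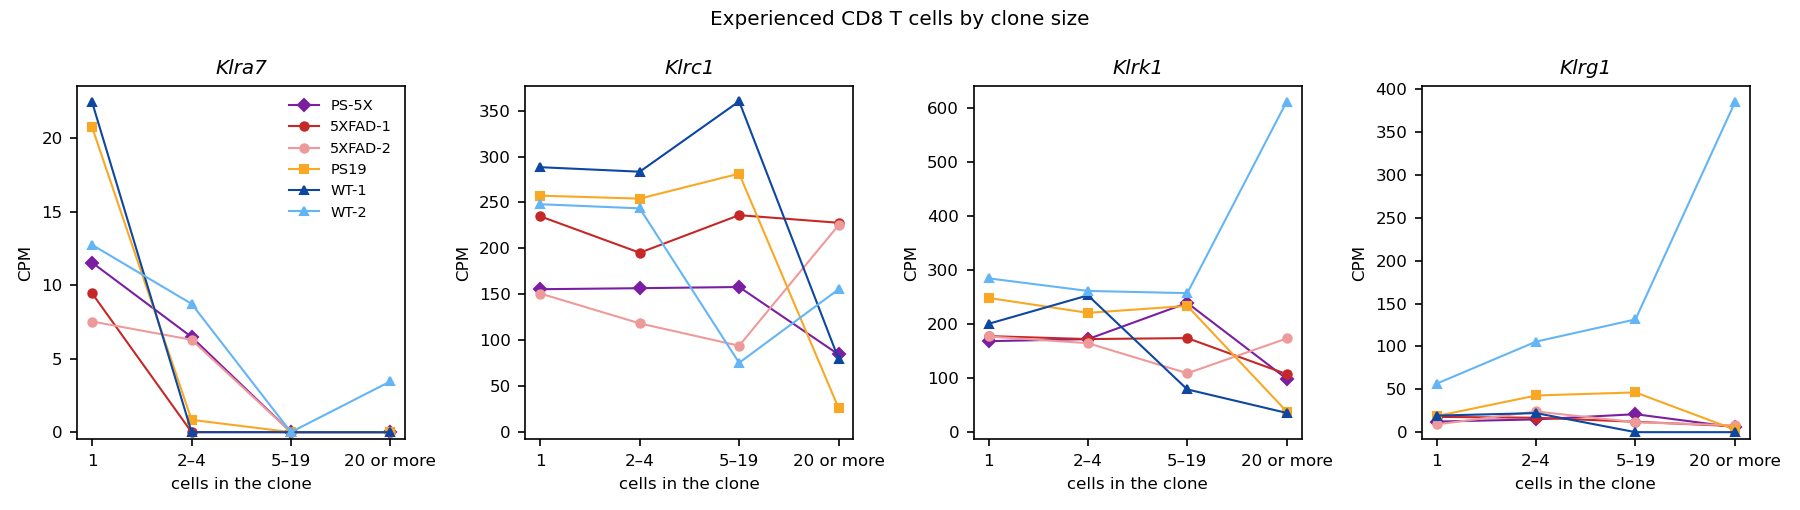
Level of 4 genes in experienced CD8 T cells by clone size, in CPM on a linear axis with a different range in each panel and 1 line per pool. Klra7 is at 0 in clones of 5 to 19 cells of all 6 pools, and Klrk1 and Klrg1 are highest in clones of 20 or more cells of WT-2. The 2 largest size classes of WT-1 hold 17 and 18 experienced cells, as clone size counts all barcodes of a pool with a contig.

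Single large clones, sized here by their kept experienced CD8 T cells alone, differed widely from each other. In 32 clones of 20 or more experienced CD8 T cells, none of them in WT-1, the share of cells with a UMI ran from 0 to 95.2% for Klrd1 (median 28.9%), from 0 to 96.6% for Klrc1 (9.93%), from 0 to 100% for Klrk1 (18.2%) and from 0 to 100% for Klrg1 (0%). The largest clone, 357 cells of PS-5X, had Klrc1 in 0.560% of cells (exact 95% interval 0.0679% to 2.01%) and Klrd1 in 7.003% (4.58% to 10.2%). A clone of 29 cells of 5XFAD-2 had Klrc1 in 96.6% (82.2% to 99.9%), Klrd1 in 93.1% and Klrk1 in 82.8%, and Klrg1 in none, which allows up to 11.9%. Cells of 1 clone are taken to share their origin, so these intervals cover counting only.

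Large clones differed from each other in whether Klrc1 was seen beside Klrd1. A clone of 43 cells of WT-2 had Klrd1 in 81.4% and Klrk1 in 95.3% of cells and Klrg1 in 76.7%, and Klrc1 in none (up to 8.22%). Of 3 clones of 21 cells in WT-2, all with Klrg1 in 81.0% or more of their cells, 2 had Klrc1 in 4.76% and 1 in 90.5%. Klra7 had no UMI in 31 of the 32 clones. The large clones of WT-2 were 13.3% of its experienced cells and held 36.7% of their Klrg1 UMIs, 35.7% of Klre1 UMIs and 37.9% of Klra9 UMIs, while those of PS-5X were 29.1% of cells and held 5.83% of Klrg1 UMIs. In 5XFAD-1, the clone of 127 cells, with Klrc1 in 29.9%, consisted of cells whose receptor also occurred in another pool, as did the clone of 105 cells of PS-5X, with Klrc1 in 50.5%.

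**Figure D4:**
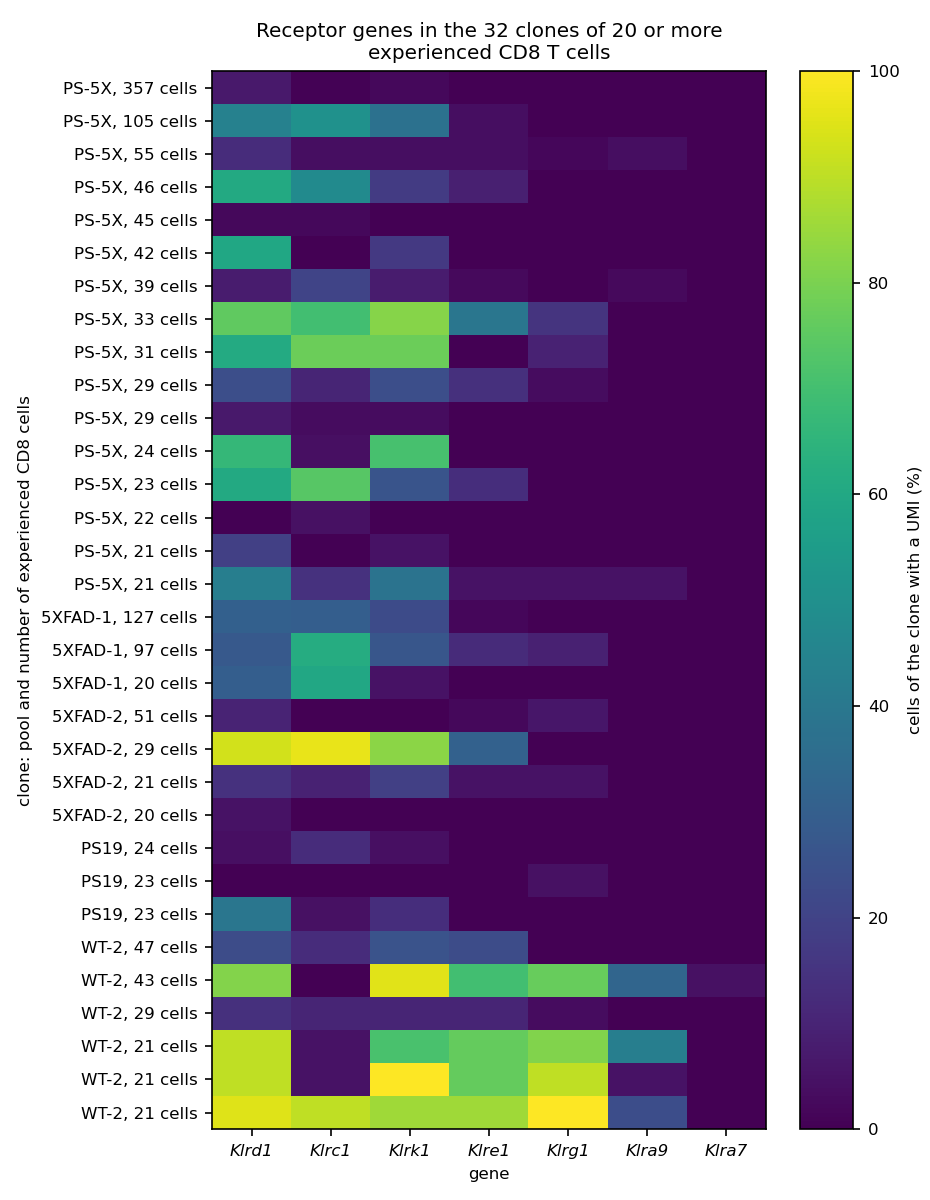
Share of cells with a UMI of 7 genes in each of the 32 clones of 20 or more experienced CD8 T cells, as colour from 0 to 100%, with 1 row per clone labelled by pool and number of cells. Clones of the same pool range from nearly none to nearly all cells for Klrd1, Klrc1 and Klrk1, Klrg1 is in 76.7% or more of the cells of 4 clones, all of WT-2, and Klra7 is absent from all clones but 1.

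The study compared amyloid and tau genotypes, and this was examined in experienced CD8 T cells. No member passed. The log2 differences of all 10 were negative. Between the 3 amyloid pools and the 3 others 7 of the 10 did not overlap, all lower with amyloid. The same held for 7.05% of 13529 genes with 10 or more UMIs. Klrd1 had 135.5, 146.0 and 129.3 CPM in PS-5X, 5XFAD-1 and 5XFAD-2, against 191.1, 178.3 and 205.6 CPM in PS19, WT-1 and WT-2. The mean was 136.9 ± 8.44 CPM with amyloid and 191.7 ± 13.7 CPM without (SD, n = 3 pools each). Klrb1c had 2.20, 1.88 and 3.70 CPM in the amyloid pools, against 6.04, 9.54 and 13.0 CPM in the others (-1.83 ± 0.31, adjusted p = 0.165).

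Klra7 had 5.90, 4.96 and 5.15 CPM in PS-5X, 5XFAD-1 and 5XFAD-2, against 13.2, 18.3 and 8.47 CPM in PS19, WT-1 and WT-2 (-1.21 ± 0.27, adjusted p = 0.214). Klra8 had 0.400, 1.54 and 2.09 CPM in the amyloid pools, against 2.63, 4.58 and 7.72 CPM in the others (-2.05 ± 0.37, 0.182). Both sets were apart in these pools, at levels of under 20 CPM. Klre1 had 17.9, 25.5 and 20.3 CPM with amyloid, against 32.7, 34.4 and 91.1 CPM without, and Klrk1 156.2, 165.6 and 154.3 CPM, against 229.1, 191.3 and 313.0 CPM.

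Klrg1 had 12.0, 14.9 and 12.4 CPM in the amyloid pools, against 26.6, 19.8 and 113.5 CPM in the others, so that WT-2 alone was far from the rest (-1.94 ± 0.52, adjusted p = 0.262). WT-2 was the highest pool for 8 of the 10 genes, and WT-1 for Klrc1 and Klra7. Klrc1 (-0.52 ± 0.20, 0.425), Klra9 (-1.91 ± 0.76, 0.468) and Klrb1f (-1.47 ± 0.50, 0.363) overlapped between the groups. Within the sequencing run of PS-5X, 5XFAD-1, PS19 and WT-1 the log2 ratio of amyloid to other pools was -0.39 for Klrd1, -1.54 for Klra7, -1.94 for Klrb1c and -0.79 for Klrg1, and within the run of 5XFAD-2 and WT-2 it was -0.67, -0.72, -1.81 and -3.20, in that order.

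The count of members called was 0 of 10, where 0% of 11133 genes were called by edgeR (1113 at unadjusted p under 0.05, 73 called by DESeq2). Genes with 10 or more UMIs whose pools did not overlap and were lower with amyloid were 7.05% of 13529. The median log2 difference of the 10 was -1.37, against 0.00 over all genes tested. DESeq2 called Klrb1c (adjusted p = 0.0018), Klrd1 (0.0138) and Klra7 (0.0367). Without WT-1, edgeR called 6 members, Klrk1, Klrg1, Klre1, Klra8, Klrd1 and Klrb1c, among 236 genes, and with no filter on low genes it called 10 of 10 among 507 of 17979, while without WT-2 the difference of Klrg1 was -0.82, that of Klra9 -0.26 and that of Klre1 -0.68. All 10 differences were negative in each of these edgeR settings, as were the 9 to which DESeq2 gave an adjusted p (it gave none to Klra8).

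Clones and other cell types were checked beside this result. Among singletons only, the differences were -1.36 for Klra8, -1.18 for Klrg1, -1.12 for Klrb1c, -1.02 for Klra9, -0.93 for Klrb1f, -0.92 for Klre1, -0.87 for Klra7, -0.47 for Klrk1 and -0.38 for Klrd1, negative and nearer to 0 than over all experienced cells. That of Klrc1 was -0.52 in both. The 7 NK genes summed to 913.2, 1161 and 1024 CPM in the amyloid pools, against 919.1, 1205 and 2037 CPM in the others, with Ncr1 at 0 in 5XFAD-1, 5XFAD-2 and PS19, and their part in the result was not tested. Leaving out every cell whose receptor or barcode sequence occurred in another pool gave differences of -0.48 for Klrd1 and -1.85 for Klrb1c.

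**Figure D5:**
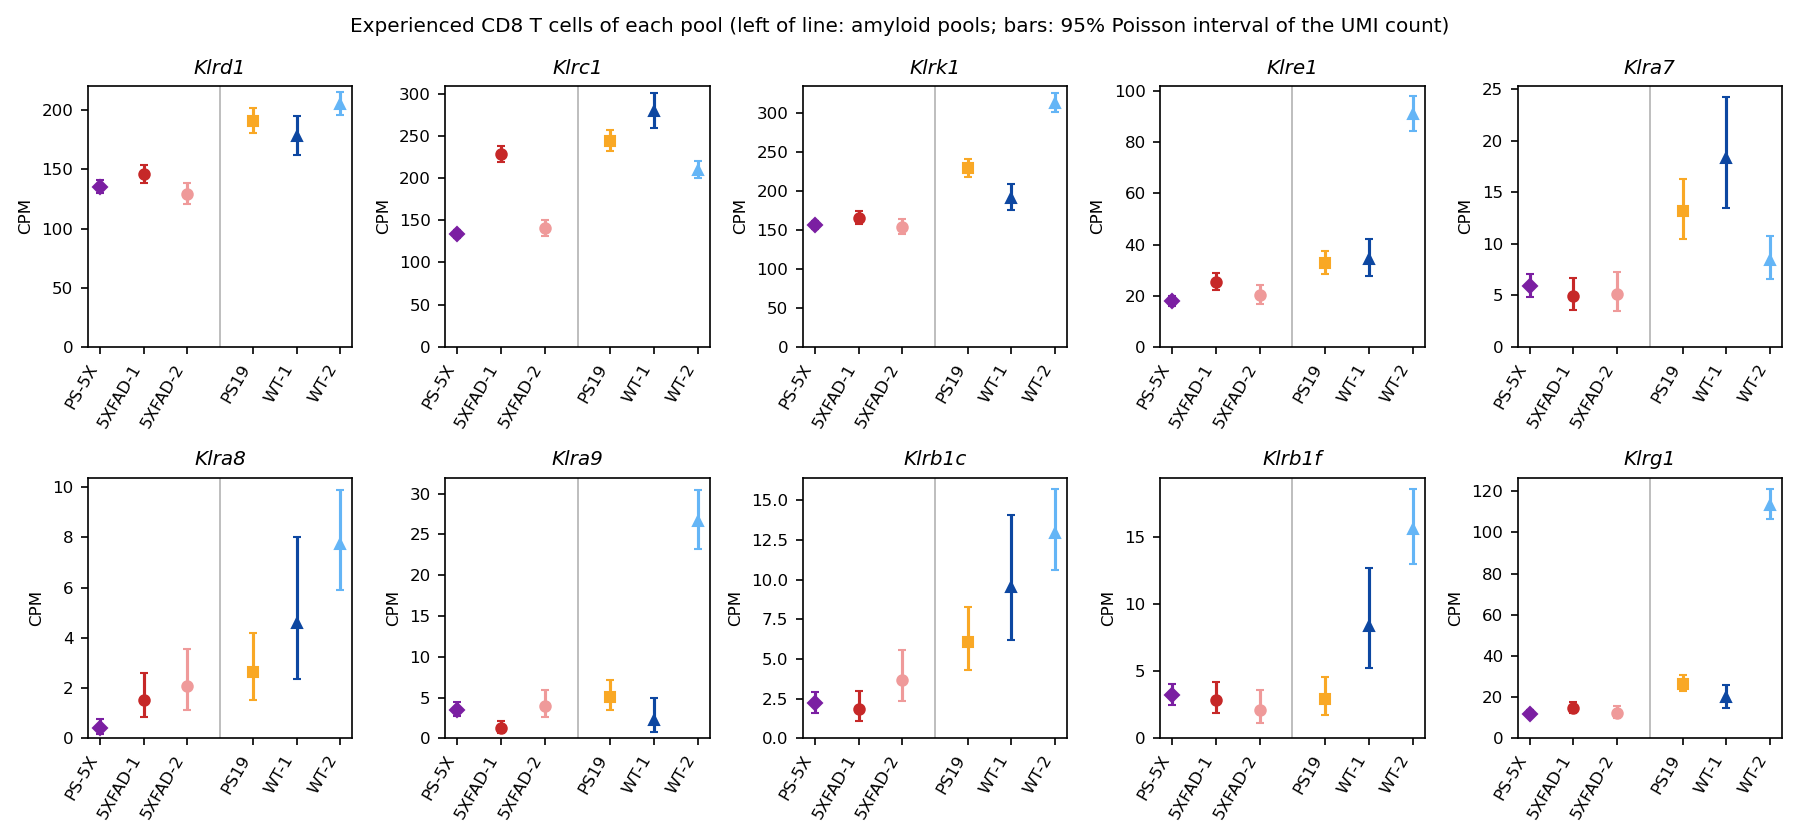
Level of each of the 10 genes in experienced CD8 T cells of each pool, in CPM on linear axes that start at 0 and differ between panels, with the amyloid pools left of the line and 95% Poisson intervals of the UMI count, which cover counting error only. The amyloid pools lie below the others for 7 of the 10 genes, as for 7.05% of all genes with 10 or more UMIs. WT-2 stands far above all other pools for Klrg1, Klre1 and Klra9.

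For tau, set against pools without it and with amyloid as a second term, 0 of 10 members passed, where 0% of 11133 genes were called (579 at unadjusted p under 0.05, 15 by DESeq2). Klra8 stood at -1.60 ± 0.41 (adjusted p = 0.849) and Klrg1 at -0.79 ± 0.56 (0.918), and without WT-2 Klrg1 was 0.08. With no filter on low genes both passed (Klra8 -1.59, adjusted p = 0.0172, and Klrg1 -0.79, 2.39e-05) among 188 genes called. In γδ T cells 0 of 8 members passed with amyloid, where 0.0476% of 8402 genes were called, all 4 of them higher. Klrc1 had 124.6, 116.1 and 196.3 CPM in γδ T cells of PS-5X, 5XFAD-1 and 5XFAD-2, against 309.8, 334.0 and 213.8 CPM in PS19, WT-1 and WT-2 (-0.94 ± 0.22, adjusted p = 0.230). It and Klrg1 did not overlap between the groups, where 4.89% of 10782 genes did not overlap and were lower with amyloid. Klrg1 was not among the 8 tested and rests on few UMIs, with 16.3 CPM at most, in the 33 cells of WT-1. Klrc1 was called by DESeq2 (adjusted p = 0.0452) and by edgeR without 5XFAD-2 (-1.25, 0.00656), and without WT-1 edgeR called Klrd1 (-1.07, 0.0128) and Klra9 (-3.45, 0.0183).

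Cells without Cd3e UMIs were the last class. Those with no receptor contig (432 cells) were set against those with one (109 cells) in the 4 pools with at least 10 cells of both kinds. Klrb1c had 50.5, 71.0, 1.76 and 52.5 CPM in cells without a contig of PS-5X, 5XFAD-1, 5XFAD-2 and WT-2, against 0, 0, 17.1 and 20.2 CPM in cells with one. It was higher in 3 of the 4 pools and did not pass (2.06 ± 1.00, adjusted p = 0.230). Klrd1 (0.76 ± 0.35, 0.192) and Klrk1 (-0.56 ± 0.42, 0.501) did not pass, nor did Klrc1, so 0 of 4 tested members were called, where 11.2% of 4636 genes were, 8.41% higher and 2.83% lower.

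Against experienced CD8 T cells, a comparison chosen after seeing the data, Klrb1c was higher in cells without Cd3e or contig (3.10, adjusted p = 4.96e-04) and Klrk1 lower (-0.88, 0.0356). There 2990 of 10977 genes were called, 1758 higher and 1232 lower, so calls were common. These cells were a mixture. NK genes summed to between 1694 and 4168 CPM over the 6 pools and microglia genes to 591.3 to 2754 CPM, against 492.3 to 1596 CPM and 58.8 to 86.0 CPM in the 4 tested sums with a contig. In the test against cells with a contig, 3 of the 7 NK genes were called higher, Tyrobp and Fcer1g among them, and 0 lower. Gzma had no UMI in cells without a contig of 5XFAD-2 and PS19, nor had Ncr1 in 5XFAD-2 and Eomes in PS19. Fcer1g (5.62 ± 0.55), Tyrobp (4.99 ± 0.54) and Syk (8.13 ± 1.06), which signal for activating receptors of NK and myeloid cells, were higher in cells without a contig, as were Klra17 (7.26 ± 1.30) and Klrb1b (3.84 ± 0.99), while Cd247 was lower (-3.28 ± 0.37). Median depth over the 6 pools was 1765 UMIs in cells without and 2531 UMIs in cells with a contig.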

How the data were processed

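The deposited matrices hold counts of UMIs per gene and cell barcode, made by the authors with Cell Ranger 6.0.1 on GRCm38, per the submitters' processing notes, beside deposited T cell receptor contigs. T cells were isolated with collagenase and Percoll and sorted before 5′ library preparation, per the labels' protocols. Barcodes under 500 genes or over 10% mitochondrial UMIs were dropped, and the highest Scrublet scores were removed as doublets at 0.8% per 1000 barcodes. Pools held between 5883210 and 38616794 UMIs. Classes came from UMIs of the stated genes and of no member (a gene used for the experienced class, 1 used for the naive-type class, a planned split of the γδ T cells and the summed B cell markers are not reported here), and a UMI missed through shallow depth leaves a cell outside its class.

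Sums of UMIs per pool and class, from 10 cells or more, entered the quasi-likelihood test of edgeR 4.0.16 (R 4.3.3; TMM, filterByExpr, Benjamini-Hochberg adjustment over all genes tested, threshold 0.05), with gate genes and receptor segments left out. Comparisons within pools had pool as a block. Amyloid and tau were fitted together without a block. Sequencing run pairs the WT and 5XFAD pools per the labels, and over 10201 genes the deviations of 5XFAD-1 and WT-1 from their genotype means correlated at 0.21. Poisson and Clopper-Pearson intervals are at 95%. DESeq2 1.42.0 was an alternative. On simulated data for amyloid in experienced CD8 T cells (9534 genes), 96.0% of log2 changes of 1 were recovered. The simulation held only genes above a minimum of UMIs, which Klra8 did not reach, and gave all genes the same dispersion. The share recovered therefore does not carry over to the 10 members. The 10 genes and the gene lists were chosen with earlier results of these data known. Named genes are the 10 members, up to 4 called genes with the smallest p per list and the closest genes by correlation.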

Additional observations from a re-analysis of the deposited data

Results flagged for a closer look

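Among 40 sets of per-pool differences examined, 2 held a pool far from the others, where chance gives about 1 in 20. The log2 difference of Klrb1c between CD8 and CD4 T cells was -1.70 in 5XFAD-1 and between -0.15 and 0.26 in the other 5 pools. The log2 difference of Klrk1 between expanded and singleton experienced CD8 T cells was 0.306 in WT-2 and between -0.34 and -0.17 in the other 5 pools.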

How the results depend on the processing

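Of the values of single members counted under an alternative setting, 666 kept their direction and side of the threshold, 54 passed it newly, 3 no longer passed and 7 changed sign. The count and the sign changes below leave out many members that did not pass, so they do not cover all members. For the clone-size interaction all members but Klrg1 were left out, and for tau all but Klra8 and Klrg1. Some of these differences were large, as for Klrb1c (-2.11) and Klra9 (-1.45) in the interaction, and others were small. Among those left out were Klrb1c, Klrb1f and Klra9 between CD8 and CD4 T cells (-0.12, 0.13 and -0.11). Klrk1 between γδ and CD8 T cells (-0.06) was another. Signs changed for Klrg1 between CD8 and CD4 T cells (0.86 with cluster classes, -0.93 to 0.13 when pools were left out), Klrc1 between γδ and CD8 T cells (-0.36 with cluster classes), Klrk1 and Klrc1 between expanded and singleton cells (0.40 and 0.21 over all CD8 T cells), Klra9 in the same comparison (-0.18 to 1.18 when pools were left out) and Klrg1 with tau (-1.40 to 0.076 when pools were left out). The cause was not tested for any of them.

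DESeq2 called 647 genes by clone size, 73 with amyloid and 15 with tau in experienced CD8 T cells, 17 with amyloid in γδ T cells and 316 between Cd3e-negative cells without and with a contig. With no gene filter the clone-size interaction had 62 calls, amyloid 507, tau 188 and amyloid in γδ T cells 102. Over all CD8 T cells clone size had 3208 calls and its interaction 4. Without cells shared between pools clone size had 645 and amyloid 1, and without the WT-1 cells that carried a receptor of another pool amyloid had 7. With doublets kept, amyloid in γδ T cells had 12, and against experienced CD8 T cells the Cd3e-negative cells had 2990.

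Without pool as a block the calls were 1687 for CD8 against CD4, 3832 for γδ against CD8, 4305 for experienced against naive-type, 331 for clone size (Klrc1 adjusted p = 0.4905), 0 for its interaction and 207 for Cd3e-negative cells. With sequencing run as a block, which pairs WT with 5XFAD pools, the calls were 0 for amyloid, 0 for tau and 8 for amyloid in γδ T cells, and no member was called in experienced CD8 T cells.

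Leaving out 1 pool at a time gave 2167 to 2462 calls for CD8 against CD4, 3981 to 4403 for γδ against CD8, 4461 to 5009 for experienced against naive-type, 778 to 953 for clone size, 0 to 6 for its interaction, 0 to 236 for amyloid (236 without WT-1), 0 to 8 for tau (8 without PS-5X), 2 to 32 for amyloid in γδ T cells (32 without 5XFAD-2) and 258 to 593 for Cd3e-negative cells (258 without WT-2). Co-detection had 0 pairs past the threshold with 5 pools, a number with which the exact permutation test cannot reach it. Depth limits what can be said of Klra8, which had 150 UMIs over all CD8 T cells and none in γδ T cells.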

Other observations

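Klrk1 had 454.1 CPM in cells with the invariant NKT receptor over all pools, against 192.4 CPM in experienced CD8 T cells, of which a clone of 21 cells in WT-2 had 1101 CPM. Klra8 had 39.4 CPM in Cd3e-negative cells without a contig of 5XFAD-1, where 1 of the 62 cells held all 10 UMIs, and no UMI in those of PS-5X, 5XFAD-2 and WT-1.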
